A study of Mus musculus with 17 samples.

Results

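The genes described here are Vim, Cdh2, Fn1, Zeb1, Zeb2, Snai1, Snai2, Twist1 and Twist2. They were chosen by name, as the usual RNA markers and transcription factors of the epithelial to mesenchymal transition (EMT), and are 9 of the 23284 genes counted in mouse tumours labelled as neuroendocrine tumours of the pituitary. In this transition, which cells pass through in development, wound repair and tumour spread, epithelial cells lose their tight contacts and gain the shape and movement of mesenchymal cells. The SNAIL, ZEB and TWIST proteins are transcription factors that bind E-box sequences. SNAIL and ZEB proteins are known to repress E-cadherin (Cdh1) and other junction genes, while vimentin, fibronectin and N-cadherin are the products usually measured to show that the change has taken place. Fibroblasts, endothelial cells and macrophages also make vimentin, fibronectin and ZEB2, so in RNA from a whole tumour these genes report on the tumour cells and on the cells around them.

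RNA was sequenced from 8 tumours with the genotype Rb1/Trp53/Crebbp and 9 with the genotype Rb1/Trp53, all from a genetically engineered mouse model. Rb1 and Trp53 are tumour suppressor genes that are altered in both groups, so the groups differ by Crebbp, which encodes a lysine acetyltransferase and transcriptional coactivator. The labels name neither the Cre driver, the strain, the sex nor the age, and do not say whether each tumour came from a mouse of its own. P-values therefore measure the spread between these samples only. Groups are called by their labels: whole-gene Crebbp counts averaged 78.9 CPM in Rb1/Trp53/Crebbp tumours against 52.4 CPM in Rb1/Trp53 tumours of the Calca-high set, and 52.2 against 73.0 CPM in the Pomc-high set. In the Calca-high set Crebbp was thus higher, by a log2 fold change of 0.60 ± 0.12 (SE, edgeR quasi-likelihood test, adjusted p = 0.00723), where 36.2% of all genes tested were called. In the Pomc-high set the same test gave -0.47 ± 0.23 (adjusted p = 0.239). Whole-gene counts include any exons that a deletion leaves in place, and so they do not check the genotype. CPM is a count scaled by the total of gene reads of its library. That total is first adjusted by TMM, a method that trims extreme genes.

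The libraries fall into 2 sets by their hormone RNA. In 7 of them Calca, the calcitonin gene, had more counts than Pomc, the precursor gene of pituitary melanotroph and corticotroph hormones (4 Rb1/Trp53/Crebbp and 3 Rb1/Trp53 tumours), and in 10 the order was the opposite (4 Rb1/Trp53/Crebbp and 6 Rb1/Trp53 tumours). These sets were drawn from the count tables, and the study's labels do not give them. The melanotroph transcription factor genes Tbx19 and Pax7 reached at most 0.317 and 0.183 CPM in the Calca-high set, against 306 to 418 and 125 to 299 CPM in the Pomc-high set, so defining markers of the labelled pituitary tissue were near 0 in the Calca-high libraries. Nkx2-1 and Ret, which thyroid C-cells express, ran from 189 to 331 and from 126 to 427 CPM in the Calca-high set, against at most 14.4 and 8.49 CPM in the Pomc-high set. The neuroendocrine granule gene Chga was abundant in both, at 3144 to 11040.0 CPM and 3869 to 8159 CPM. Totals on genes were 8328297 to 28140755 reads per library. Within the Calca-high set the depths of the genotypes did not overlap: 8328297 to 15490074 reads in Rb1/Trp53/Crebbp tumours against 20361712 to 28140755 in Rb1/Trp53 tumours.

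Of the structural genes, Vim, which encodes the intermediate filament protein vimentin, was detected in every library, at 30.5 to 135 CPM. In the Calca-high set it had 55.8, 103, 72.9 and 71.7 CPM in Rb1/Trp53/Crebbp tumours 1 to 4, against 66.6, 98.7 and 135 CPM in Rb1/Trp53 tumours 1, 3 and 4. In the Pomc-high set it had 46.6, 32.6, 30.5 and 82.1 CPM in Rb1/Trp53/Crebbp tumours 5 to 8, and in the 6 Rb1/Trp53 tumours the lowest value was 38.0, the median 88.6 and the highest 117 CPM. All 4 groups overlapped, and the lowest 2 values of all belonged to Rb1/Trp53/Crebbp tumours 6 and 7.

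Fn1 encodes fibronectin, the matrix protein that cells hold through integrins. It varied widely within the groups of the Calca-high set, with 78.6, 175, 222 and 133 CPM in the Rb1/Trp53/Crebbp tumours against 23.5, 101 and 256 CPM in the Rb1/Trp53 tumours. Pomc-high Rb1/Trp53/Crebbp tumours had 35.0, 15.7, 12.3 and 84.6 CPM, and Pomc-high Rb1/Trp53 tumours ran from 9.24 to 63.1 CPM with a median of 49.6 CPM. The genotypes overlapped in both sets, and the Rb1/Trp53 tumours 1 and 4 of the Calca-high set alone spanned a range that held every other library except Rb1/Trp53/Crebbp tumours 6 and 7 and Rb1/Trp53 tumour 6.

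Cdh2 encodes N-cadherin, the cell adhesion protein of neurons, neuroendocrine and mesenchymal cells. Calca-high Rb1/Trp53/Crebbp tumours had 62.6, 76.8, 75.1 and 75.4 CPM, against 27.6, 36.5 and 57.8 CPM in Calca-high Rb1/Trp53 tumours. Here the genotypes did not overlap, but the share of all genes without overlap was not counted. In the Pomc-high set the Rb1/Trp53/Crebbp tumours had 86.6, 84.9, 98.3 and 117 CPM. The Rb1/Trp53 tumours of that set had 78.2 to 106 CPM with a median of 89.5 CPM, so those groups overlapped. Every Pomc-high library lay above every Calca-high one. The share of all genes that separate the sets in this way was not counted either, and 60.1% of all genes tested were called between the sets.

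The ZEB factors are zinc finger repressors of epithelial genes. Zeb1 had 33.7, 30.4, 33.7 and 31.8 CPM in Calca-high Rb1/Trp53/Crebbp tumours, against 26.8, 30.7 and 23.2 CPM in Calca-high Rb1/Trp53 tumours. It had 32.7, 44.4, 37.1 and 48.5 CPM in Pomc-high Rb1/Trp53/Crebbp tumours, and 37.8 to 56.9 CPM with a median of 47.0 CPM in Pomc-high Rb1/Trp53 tumours. Its 17 values stayed within a narrow band, and the sets met only where Rb1/Trp53/Crebbp tumour 5, the lowest of the Pomc-high set, fell below the highest Calca-high values. Zeb2 was at low levels, 1.90, 4.58, 2.50 and 2.78 CPM in Calca-high Rb1/Trp53/Crebbp tumours and 4.66, 5.45 and 4.16 CPM in Calca-high Rb1/Trp53 tumours. In the Pomc-high set Rb1/Trp53/Crebbp tumours 5 to 7 had 1.58, 1.55 and 1.43 CPM and tumour 8 had 9.38 CPM, while the Rb1/Trp53 tumours ran from 2.44 to 5.94 CPM with a median of 4.14 CPM. The first 3 of these tumours lay under every Rb1/Trp53 tumour of the set and the fourth above them all.

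The SNAIL factors, zinc finger repressors of Cdh1, were at a few CPM. Snai1 had 2.32, 2.63, 2.24 and 1.96 CPM in Calca-high Rb1/Trp53/Crebbp tumours and 0.959, 1.82 and 2.86 CPM in Calca-high Rb1/Trp53 tumours. Pomc-high Rb1/Trp53/Crebbp tumours had 1.69, 0.148, 0.550 and 1.86 CPM, which rest on 2 to 23 reads, and Pomc-high Rb1/Trp53 tumours 1.82 to 3.39 CPM with a median of 2.42 CPM. Snai2 had 3.59, 3.61, 3.26 and 3.85 CPM in Calca-high Rb1/Trp53/Crebbp tumours against 3.06, 3.41 and 2.31 CPM in Calca-high Rb1/Trp53 tumours, and 4.32, 5.47, 4.51 and 3.72 CPM in Pomc-high Rb1/Trp53/Crebbp tumours against 4.57 to 6.48 CPM (median 5.83) in Pomc-high Rb1/Trp53 tumours. Genotypes overlapped in each set for both genes.

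The TWIST factors, basic helix-loop-helix proteins of mesoderm and neural crest, were close to the limit of detection. Twist1 ranged from 0.384 to 2.51 CPM in Calca-high Rb1/Trp53/Crebbp tumours and from 1.15 to 1.74 CPM in Calca-high Rb1/Trp53 tumours. Its range was 0.110 to 0.889 CPM in Pomc-high Rb1/Trp53/Crebbp tumours and 0.336 to 1.49 CPM in Pomc-high Rb1/Trp53 tumours. Twist2 had 104 reads over all 17 libraries and none in 3 of them, where a count of 0 allows up to 0.192 to 0.383 CPM (3 reads, counting error only). It ran from 0 to 0.611 CPM in Calca-high Rb1/Trp53/Crebbp tumours and from 0.502 to 1.17 CPM in Calca-high Rb1/Trp53 tumours, and did not pass 0.391 CPM in any Pomc-high library.

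**Figure D1:**
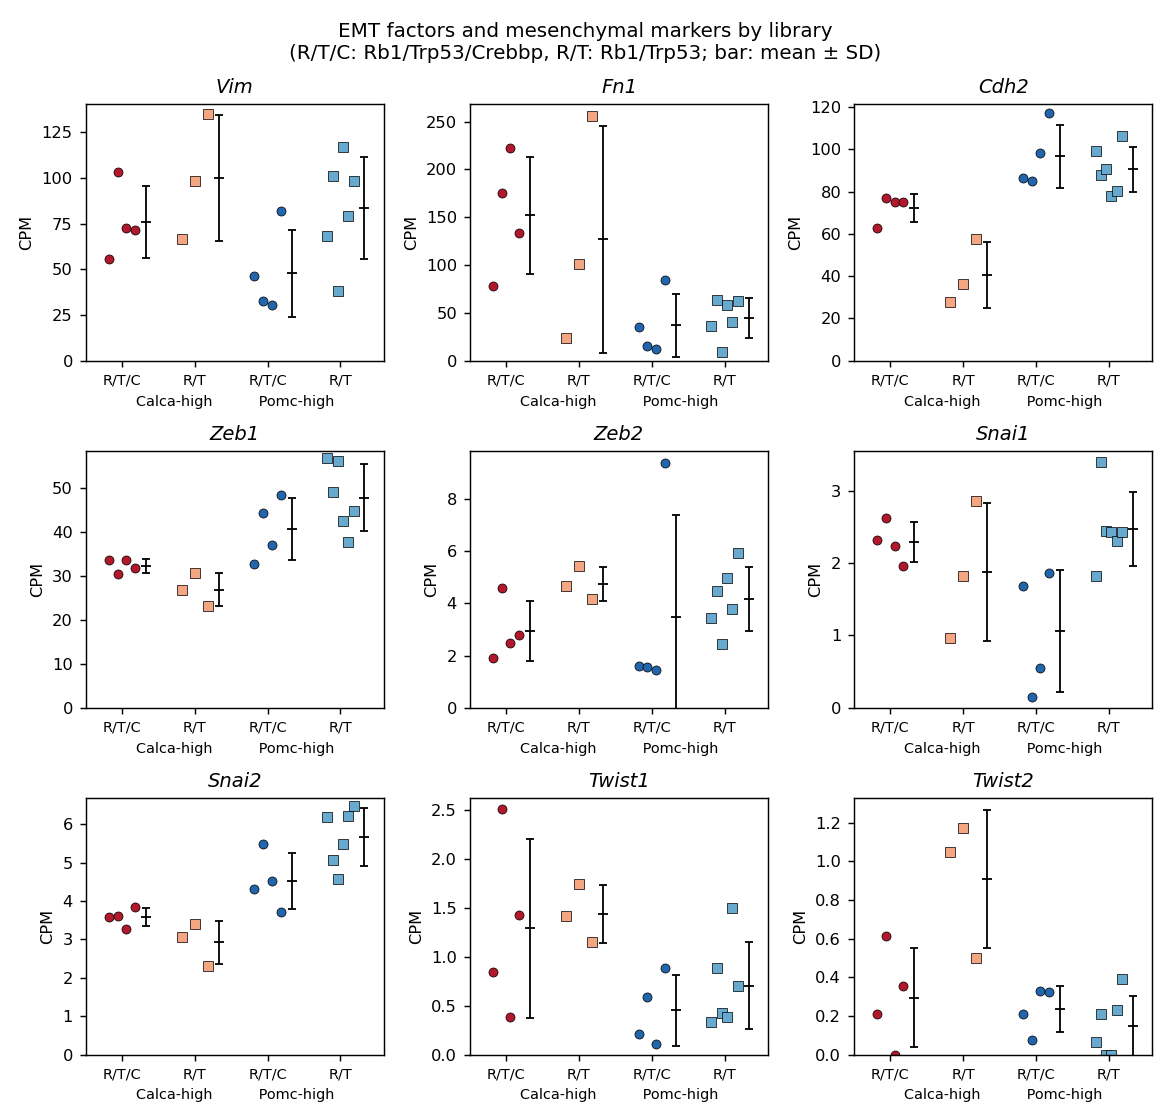
CPM (linear axis from 0) of the 9 genes in each library, in 4 columns: Rb1/Trp53/Crebbp and Rb1/Trp53 tumours of the Calca-high set, then of the Pomc-high set; points are libraries and bars mean ± SD, with bars that would pass below 0 ending at the axis. Cdh2 is the gene of the 9 whose Calca-high genotypes are apart (62.6 to 76.8 CPM against 27.6 to 57.8 CPM), and a lone Pomc-high Rb1/Trp53/Crebbp tumour stands high for Zeb2 at 9.38 CPM. How many of all genes are apart in this way was not counted. For the genotype in the Calca-high set, 36.2% of all genes tested were called.

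Between the sets, N-cadherin, Zeb1 and Snai2 RNA were lower and fibronectin and Twist1 RNA higher in the Calca-high libraries than in the Pomc-high ones. Cdh2 averaged 58.8 ± 19.8 CPM in Calca-high and 93.0 ± 12.2 CPM in Pomc-high libraries (SD, n = 7 and 10), or -0.78 ± 0.16 as a log2 fold change with its SE (adjusted p = 0.000363). Fn1 averaged 141 ± 82.0 CPM in Calca-high and 41.8 ± 25.1 CPM in Pomc-high libraries, a log2 fold change of 1.77 ± 0.48 (adjusted p = 0.00401). Log2 fold changes were -0.58 ± 0.12 for Zeb1 (adjusted p = 0.00041), -0.64 ± 0.16 for Snai2 (adjusted p = 0.00217) and 1.23 ± 0.42 for Twist1 (adjusted p = 0.0168). Each value is Calca-high over Pomc-high, from an edgeR quasi-likelihood fit with the genotype as a term and Benjamini-Hochberg adjustment over all genes tested, and an adjusted p under 0.05 counts as changed.

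So 2 of the 9 genes were higher and 3 lower, of 8 that passed the filter on low counts; Twist2 did not pass it. Among all 15432 genes tested, 60.1% were called in this comparison, so 5 of 8 is close to the share of genes in general. Vim at 0.46 ± 0.24 (adjusted p = 0.113), Snai1 at 0.34 ± 0.40 (adjusted p = 0.482) and Zeb2 at -0.02 ± 0.35 (adjusted p = 0.959) did not pass. Without Rb1/Trp53/Crebbp tumour 8, Vim was 0.59 (adjusted p = 0.0413) and Zeb2 turned to 0.48 (adjusted p = 0.0864). The median log2 fold change was 0.16 over the 8 genes and 0.01 over all genes tested. With libraries scaled to their gene totals alone, the median of all genes moved to 0.12 and the share of called genes that were higher in the Calca-high set to 62.1%, against 51.8%.

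Within the genotypes, as values of a fit of 4 groups that was added after the data had been seen, the calls differed. In Rb1/Trp53/Crebbp tumours Fn1 was called, at 2.04 (adjusted p = 0.0297), as 1 of the 8 genes tested, against 53.7% of all genes. There Cdh2 was -0.42 (adjusted p = 0.0524), Zeb1 -0.33 (adjusted p = 0.0561), Snai2 -0.33 (adjusted p = 0.165) and Twist1 1.45 (adjusted p = 0.0574). In Rb1/Trp53 tumours Cdh2 was -1.16 (adjusted p = 4.12e-05), and Zeb1 at -0.83 (adjusted p = 0.00011) and Snai2 at -0.95 (adjusted p = 0.000693) also passed, 3 of 8 against 55.7% of all genes. Fn1 there was 1.49 (adjusted p = 0.0768) and Twist1 1.03 (adjusted p = 0.128). The difference between these within-genotype values is the interaction given further on.

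Epithelial genes differed widely between the sets, a comparison in which 60.1% of all genes tested were called. Of 31 tested epithelial junction and keratin genes 25 were higher in the Calca-high set and 0 lower, with a median log2 fold change of 1.11, and 2 were lower without Rb1/Trp53 tumour 1. Krt7, a keratin of simple epithelia, averaged 795 CPM against 54.4 CPM (log2 fold change 3.88 ± 0.12, adjusted p = 3.44e-14). Jup, the plakoglobin gene, averaged 399 against 52.7 CPM (2.93 ± 0.10, adjusted p = 6.44e-14). Cdh1, which encodes E-cadherin, had 56.7 to 296 CPM in the Calca-high libraries and 0.939 to 6.76 CPM in the Pomc-high ones, a log2 fold change of 5.79 ± 0.39. Epcam, an epithelial adhesion gene, was high in both sets and differed by 0.86 ± 0.19.

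Regulators of epithelial identity followed the same direction, with 11 of 14 higher and 0 lower, beside 60.1% of all genes called between the sets. The pioneer factor genes Foxa2 and Foxa1 averaged 120.2 and 114.5 CPM in the Calca-high set against 0.370 and 0.537 CPM in the Pomc-high set. Grhl3, a grainyhead factor of epithelia, averaged 6.86 against 0.210 CPM. Other EMT-associated transcription factors went both ways, 6 higher and 10 lower of 21. Prrx1, a homeobox gene of mesenchyme, averaged 3.70 CPM in Calca-high and 155 CPM in Pomc-high libraries (-5.32 ± 0.23, adjusted p = 3.98e-12), and Foxc1, a forkhead factor, 0.864 against 5.88 CPM (-2.59 ± 0.28, adjusted p = 3.21e-07). Ets1 was higher, at 19.2 against 7.58 CPM.

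Other mesenchymal and matrix genes were mostly higher in the Calca-high set, 17 of 27 with 4 lower. Each list count in this paragraph stands beside 60.1% of all genes called between the sets. The matrix gene Tnc, for tenascin C, averaged 54.0 against 1.93 CPM, the hyaluronan receptor gene Cd44 92.9 against 6.18 CPM, and Tpm1, a tropomyosin gene, 154 against 68.8 CPM. Among genes for fibronectin receptors and their adaptors 7 of 13 were higher and 2 lower, or 1 lower without Rb1/Trp53 tumour 3. Tns1, for the adhesion protein tensin, averaged 203 against 45.1 CPM. Of the catenins and other partners of N-cadherin, 4 of 8 were higher and 2 lower, with Ctnna1, for alpha-catenin, at 228 against 139 CPM, and Fgfr1, a growth factor receptor that N-cadherin binds, at 83.8 against 20.7 CPM. Corepressors that SNAIL and ZEB proteins use were higher for 12 of 17 genes and lower for 0, among them Hdac2 at 146 against 75.4 CPM and Mta1 at 177 against 81.7 CPM. Of the transforming growth factor beta (TGF-beta) genes, whose signal can start the transition, 4 of 15 were higher and 4 lower, with Tgfb1 at 32.5 against 12.2 CPM and the Smad corepressor gene Ski at 54.6 against 103 CPM. Neuronal and vimentin-related intermediate filament genes split, 2 of 9 higher and 4 lower, with log2 fold changes of 3.82 for Prph and -4.84 for Nefm. Genes that control the stability of SNAIL and TWIST proteins split likewise, 5 of 10 higher and 3 lower.

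Fibroblast markers were higher in the Calca-high set too, 10 of 12 with 1 lower, beside 60.1% of all genes called. Their summed level was 292 to 1001 CPM in Calca-high libraries against 59.4 to 275 CPM in Pomc-high ones, with no overlap, and none of the defining markers Col1a1, Col1a2 and Dcn was at 0 in any library. Fewer cells of a type and less RNA per cell cannot be told apart in such samples. Beside the same share, thyroid follicle markers were higher in the Calca-high set for 5 of 5 tested and fat cell markers for 4 of 4. Thyroid follicle sums were 928 to 16820 CPM in Calca-high libraries against 7.0 to 161 CPM in Pomc-high ones. The part of fibroblasts in the difference of Fn1 and the other matrix genes was not tested. Nor was the part of thyroid follicle and other neighbouring cells in the differences of Cdh1, Krt7, Jup, Foxa1, Foxa2 and the other epithelial genes.

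**Figure D2:**
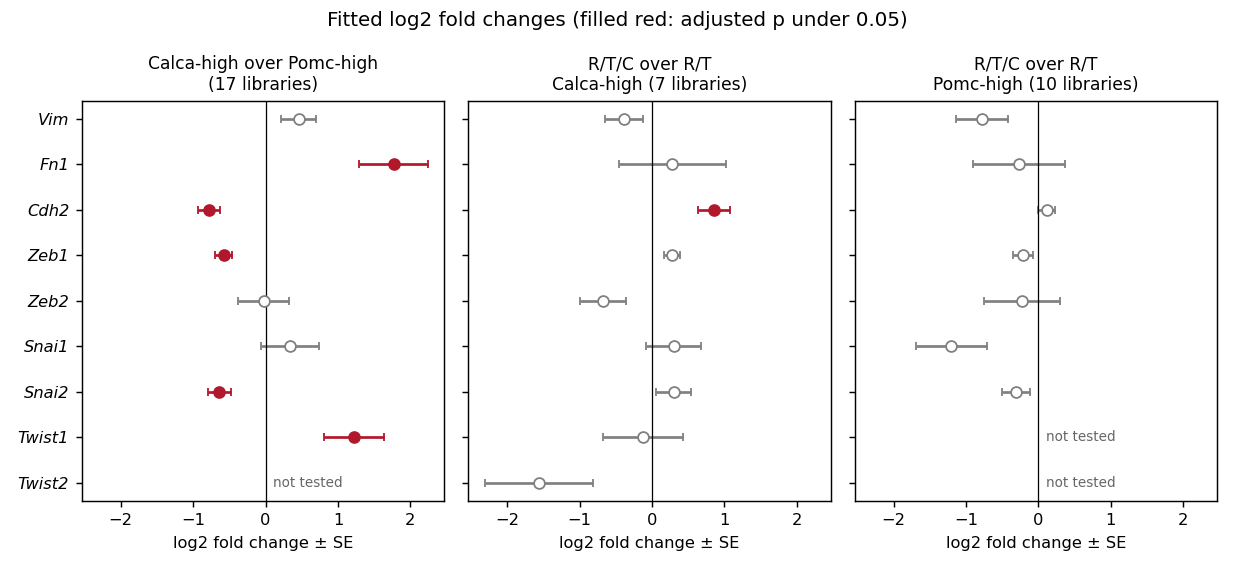
Fitted log2 fold changes (points) with their SE (bars) for the 9 genes in 3 comparisons: Calca-high over Pomc-high, Rb1/Trp53/Crebbp over Rb1/Trp53 in the Calca-high set, and the same in the Pomc-high set; filled red points have an adjusted p under 0.05. Fn1 (1.77) and Twist1 (1.23) are called higher and Cdh2 (-0.78), Zeb1 (-0.58) and Snai2 (-0.64) lower between the sets, and Cdh2 (0.85) is the only gene called for the genotype.

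SNAIL and ZEB proteins are known to recognise an E-box, and its letters were looked for in the promoters of the EMT and epithelial genes. The motif searched was the 6 bases CACCTG, which read CAGGTG on the other strand, in a RefSeq window from 250 bases before to 50 bases after the start of each gene (build GRCm38.p6, whereas the counts were made on mm9). Of all 32851 windows, 20.2% held it. Of the epithelial junction and keratin genes, 17 of the 20 with a window held it (21 of 25 windows, 84.0%). Of the regulators of epithelial identity 4 of 8 did (5 of 12 windows, 41.7%). Jup and Foxa2, which also differed between the sets, did not hold it in any of their windows, and Cdh1 was not matched to a window. Of the 5 EMT genes with a window (Vim, Zeb2, Snai1, Twist1 and Twist2), only Snai1 held it (1 of 8 windows, 12.5%). Base composition was not matched between these sets of windows, and a match describes letters, not a bound site. Printed here are Snai1, the EMT gene that holds it, and 4 epithelial genes whose RNA changed in a comparison of these tumours, each from its 5′ end along the strand of the gene with the motif in capitals.
Snai1: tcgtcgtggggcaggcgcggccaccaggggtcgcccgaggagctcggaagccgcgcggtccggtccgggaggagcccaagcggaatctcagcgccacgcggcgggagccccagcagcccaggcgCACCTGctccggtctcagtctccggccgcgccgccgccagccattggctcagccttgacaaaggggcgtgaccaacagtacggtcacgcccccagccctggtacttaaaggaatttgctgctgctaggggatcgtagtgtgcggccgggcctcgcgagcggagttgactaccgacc
Epcam: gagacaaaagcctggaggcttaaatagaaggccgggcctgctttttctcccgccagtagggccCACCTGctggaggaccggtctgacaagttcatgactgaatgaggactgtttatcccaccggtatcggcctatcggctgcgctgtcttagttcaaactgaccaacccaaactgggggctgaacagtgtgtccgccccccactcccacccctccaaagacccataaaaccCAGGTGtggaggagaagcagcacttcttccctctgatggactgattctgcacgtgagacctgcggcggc
Krt7: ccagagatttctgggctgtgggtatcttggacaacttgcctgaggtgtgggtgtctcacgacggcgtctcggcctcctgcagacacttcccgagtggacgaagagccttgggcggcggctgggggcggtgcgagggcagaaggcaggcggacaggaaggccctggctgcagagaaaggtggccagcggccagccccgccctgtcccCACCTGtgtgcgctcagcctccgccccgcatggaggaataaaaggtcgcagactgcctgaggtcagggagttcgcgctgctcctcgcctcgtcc
Cldn3: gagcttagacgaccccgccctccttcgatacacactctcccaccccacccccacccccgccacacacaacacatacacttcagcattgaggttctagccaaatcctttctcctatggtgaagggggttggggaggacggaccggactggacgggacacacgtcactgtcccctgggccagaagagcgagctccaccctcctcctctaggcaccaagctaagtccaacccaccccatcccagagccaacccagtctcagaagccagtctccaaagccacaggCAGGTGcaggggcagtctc
Rab25: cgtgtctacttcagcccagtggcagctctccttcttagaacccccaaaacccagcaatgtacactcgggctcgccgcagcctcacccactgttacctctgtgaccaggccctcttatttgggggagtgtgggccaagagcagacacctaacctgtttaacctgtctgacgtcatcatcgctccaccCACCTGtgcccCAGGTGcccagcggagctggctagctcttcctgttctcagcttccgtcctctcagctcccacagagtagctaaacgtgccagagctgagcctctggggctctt
The Snai1 window is chr2:167537945-167538244 on the plus strand, with the motif from base 125. The Epcam window, chr17:87635729-87636028 on the plus strand, has the motif from bases 64 and 232. Krt7 lies at chr15:101412153-101412452 on the plus strand with the motif from base 207, and Cldn3 at chr5:134985964-134986263 on the plus strand with the motif from base 282. In the Rab25 window, chr3:88548230-88548529 on the minus strand, the motif starts at bases 187 and 198, on opposite strands.

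For the genotype, N-cadherin was the gene that changed in the Calca-high set. Cdh2 averaged 72.5 ± 6.60 CPM in Rb1/Trp53/Crebbp and 40.6 ± 15.5 CPM in Rb1/Trp53 tumours (SD, n = 4 and 3), or 0.85 ± 0.22 as a log2 fold change with its SE (edgeR quasi-likelihood test, adjusted p = 0.0215). It was 1 of the 9 genes, all of which passed the filter on low counts, while 36.2% of the 14797 genes tested were called in this comparison, so the share among the 9 lay below that of genes in general. The call rested on few libraries: without Rb1/Trp53 tumour 3 the value was 0.79 (adjusted p = 0.0751), without Rb1/Trp53/Crebbp tumour 3 it was 0.82 (adjusted p = 0.0589) and without Rb1/Trp53/Crebbp tumour 4 it was 0.82 (adjusted p = 0.0568). With gene totals in place of scaling by TMM, a method that trims extreme genes, Cdh2 was called at 1.05 and Zeb1 as well, at 0.48 (adjusted p = 0.0124). That scaling moved the median of all genes to 0.18 and the share of called genes that were higher to 77.2%, against 52.7%.

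The other 8 genes did not pass. Zeb1 was 0.28 ± 0.12 (adjusted p = 0.096), Snai2 0.30 ± 0.24 (adjusted p = 0.354), Snai1 0.30 ± 0.38 (adjusted p = 0.564) and Fn1 0.28 ± 0.74 (adjusted p = 0.792). Below 0 were Vim at -0.38 ± 0.26 (adjusted p = 0.288), Zeb2 at -0.67 ± 0.32 (adjusted p = 0.132), Twist1 at -0.13 ± 0.55 (adjusted p = 0.874) and Twist2 at -1.56 ± 0.75 (adjusted p = 0.134). Without Rb1/Trp53/Crebbp tumour 2 Zeb2 was called, at -0.97 (adjusted p = 0.0349). The SE of Fn1 leaves room for a change of more than 2-fold in either direction. The median was 0.28 over the 9 genes and -0.02 over all genes tested.

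E-cadherin moved the other way from N-cadherin in the same tumours. Cdh1 had 85.3, 74.0, 71.6 and 56.7 CPM in Rb1/Trp53/Crebbp tumours against 296, 269 and 239 CPM in Rb1/Trp53 tumours, a log2 fold change of -1.89 ± 0.15 (adjusted p = 0.000586). Per library, the ratio of Cdh2 to Cdh1 counts was 0.735 to 1.33 in Rb1/Trp53/Crebbp tumours against 0.0933 to 0.241 in Rb1/Trp53 tumours, without overlap. The difference of the mean log2 ratios was 2.81 with a two-sided exact permutation p of 0.0571, which is the smallest that 4 against 3 samples allow. In the Pomc-high set the ratios were 19.9 to 99.2 in Rb1/Trp53/Crebbp and 11.6 to 93.8 in Rb1/Trp53 tumours and overlapped (exact permutation p = 0.352). The ratio compares libraries and not the amounts of the 2 transcripts, since the counts are not scaled for gene length.

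**Figure D3:**
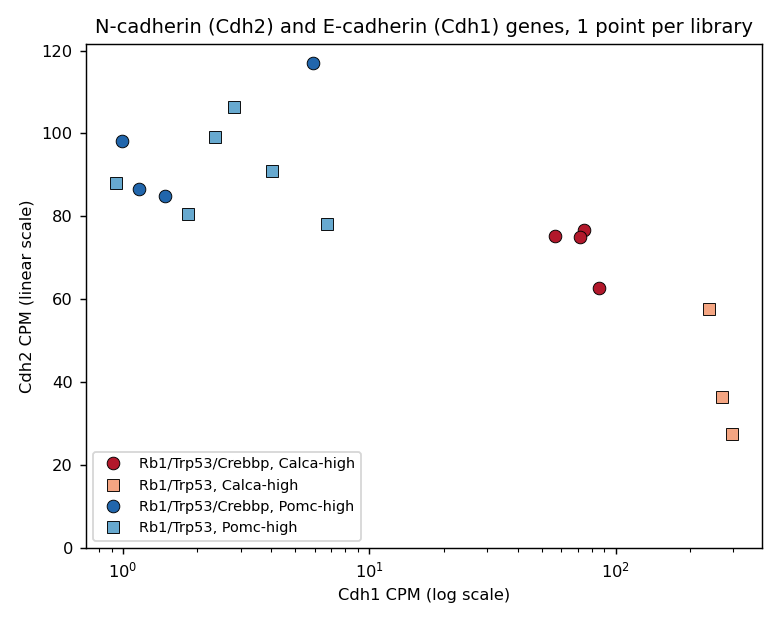
Cdh2 CPM (linear axis) against Cdh1 CPM (log axis), 1 point per library, with circles for Rb1/Trp53/Crebbp and squares for Rb1/Trp53 tumours and reds for the Calca-high and blues for the Pomc-high set. The 4 Calca-high Rb1/Trp53/Crebbp tumours (Cdh1 56.7 to 85.3 CPM) lie above and to the left of the 3 Calca-high Rb1/Trp53 tumours (Cdh1 239 to 296 CPM), and the Pomc-high tumours all have Cdh1 at 6.76 CPM or less.

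Of 31 tested epithelial junction and keratin genes, Cdh1 among them, 14 were lower in Calca-high Rb1/Trp53/Crebbp tumours and 4 higher, with a median of -0.42, while 36.2% of all genes were called. With each library left out in turn 11 to 15 were lower and 2 to 4 higher, and under gene totals 11 were lower and 5 higher. Cldn3, a tight junction claudin, averaged 80.2 CPM in Rb1/Trp53/Crebbp against 191 CPM in Rb1/Trp53 tumours (-1.24 ± 0.11, adjusted p = 0.00078). Rab25, a small GTPase of epithelial membrane traffic, averaged 35.4 against 59.2 CPM (-0.73 ± 0.08, adjusted p = 0.00103), and Epcam 778 against 1409 CPM (-0.85 ± 0.29, adjusted p = 0.0495). The Epcam call was lost in 6 of 7 fits that left out 1 library, all but that without Rb1/Trp53 tumour 4. Over the 7 fits the values ran from -1.05 to -0.55, and under gene totals the value was -0.65 (adjusted p = 0.0952). Among regulators of epithelial identity 4 of 15 were higher and 5 lower. Grhl1 averaged 20.1 against 8.59 CPM and Klf5, a Krüppel-like factor, 6.27 against 1.44 CPM, while Foxa2 averaged 91.2 against 158.9 CPM. That list depended on single libraries, with 2 to 4 higher and 3 to 6 lower as each was left out.

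Of 18 other EMT-associated transcription factors, 6 were lower in Calca-high Rb1/Trp53/Crebbp tumours and 1 higher. Together that is close to the 36.2% of all genes that were called in this comparison. The TGF-beta and corepressor counts below stand beside the same share. The inhibitors of basic helix-loop-helix factors Id4 and Id3 averaged 6.23 and 7.32 CPM in Rb1/Trp53/Crebbp tumours against 33.7 and 18.9 CPM in Rb1/Trp53 tumours (log2 fold changes -2.43 ± 0.32 and -1.36 ± 0.28, adjusted p = 0.00199 and 0.00797). Wwtr1, the coactivator TAZ, averaged 5.67 against 11.5 CPM. Of 15 TGF-beta genes 7 were higher and 1 lower, though without Rb1/Trp53 tumour 3 the count was 3 higher and without Rb1/Trp53 tumour 4, Rb1/Trp53/Crebbp tumour 3 or Rb1/Trp53/Crebbp tumour 4 it was 4. The Smad corepressor genes Skil and Ski averaged 76.9 and 64.7 CPM against 43.1 and 41.1 CPM, and Tgfb2, a ligand, 3.38 against 0.853 CPM. Corepressor genes were higher for 5 of 17 and lower for 2, with Rcor1, the CoREST scaffold, at 34.5 against 11.4 CPM (1.61 ± 0.16, adjusted p = 0.000982). Under gene totals, 8 of the 17 were higher and 0 lower.

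Matrix and mesenchymal genes besides the 9 were higher for 2 of 27 and lower for 6. All counts in this paragraph stand beside 36.2% of all genes called in this comparison. Sparc, a matrix protein gene of many stromal cells, averaged 95.5 against 264 CPM (-1.45 ± 0.26, adjusted p = 0.00538) and Thy1, a surface glycoprotein gene, 72.1 against 236 CPM, while the lysyl oxidase family gene Loxl2 averaged 63.4 against 39.3 CPM. Without Rb1/Trp53/Crebbp tumour 2 the count was 12 lower, and without Rb1/Trp53 tumour 3 or Rb1/Trp53/Crebbp tumour 3 or 4 it was 3. The neuronal filament genes Nefh (log2 fold change 0.91), Ina (86.9 against 62.9 CPM) and Nefm (0.871 against 0.143 CPM) were the 3 of 7 filament genes that were higher, and 0 were lower. Sdc4, Itgb6 and Itgb3, for a syndecan and integrin chains, were the 3 of 12 fibronectin receptor genes that were lower, with Sdc4 at 65.6 against 201 CPM, and 1 was higher. Mllt4 and Vcl, for the junction proteins afadin and vinculin, were the 2 of 8 N-cadherin partners that were higher, at 119 against 85.8 and 64.7 against 53.9 CPM, and the count was 1 without Rb1/Trp53 tumour 3 or Rb1/Trp53/Crebbp tumour 2, 3 or 4. Of 10 genes for the stability of SNAIL and TWIST proteins 2 were higher and 1 lower, with the kinase gene Gsk3b at 157 against 108.5 CPM.

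Marker lists of other cell types differed in how many genes were called for the genotype in the Calca-high set, beside 36.2% of all genes. Endothelial markers were lower for 8 of 13 genes, with a summed level of 66.5 to 86.9 CPM in Rb1/Trp53/Crebbp against 123 to 136 CPM in Rb1/Trp53 tumours, and for 4 without Rb1/Trp53 tumour 3. Macrophage markers were lower for 3 of 12, at 102 to 297 CPM against 277 to 316 CPM, with 0 without Rb1/Trp53 tumour 3, 1 without Rb1/Trp53 tumour 1 or Rb1/Trp53/Crebbp tumour 4, 5 without Rb1/Trp53 tumour 4 and 8 without Rb1/Trp53/Crebbp tumour 2. Fibroblast markers were called for 0 of 12, at 292 to 848 CPM against 697 to 1001 CPM, and 5 were lower without Rb1/Trp53/Crebbp tumour 2 and 2 without Rb1/Trp53 tumour 4. Fat cell markers were lower for all 5 tested, at 6.53 to 10.2 CPM against 40.1 to 225 CPM, and thyroid follicle markers for all 5, at 928 to 1297 CPM against 2115 to 16820.0 CPM, though for 3 without Rb1/Trp53 tumour 1 or 3. C-cell markers were lower for 4 of 5. Neuroendocrine markers were lower for 5 of 6, for 2 without Rb1/Trp53 tumour 3, and for 3 without Rb1/Trp53 tumour 4 or Rb1/Trp53/Crebbp tumour 3 or 4. Defining markers of endothelium, macrophages, fibroblasts and thyroid follicles were above 0 in every Calca-high library. The part of these cells and of the gap in depth in the changes of Cdh2, Cdh1 and the epithelial genes was not tested.

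In the Pomc-high set 0 of the 9 genes passed for the genotype, while 8.42% of the 14010 genes tested did. Of the 7 that passed the filter on low counts, 1 had an unadjusted p under 0.05, and DESeq2 and limma-voom also called 0. Snai1 averaged 1.06 ± 0.84 CPM in Rb1/Trp53/Crebbp and 2.47 ± 0.51 CPM in Rb1/Trp53 tumours (SD, n = 4 and 6), a log2 fold change of -1.20 ± 0.49 (unadjusted p = 0.0292, adjusted p = 0.145). Vim was -0.78 ± 0.36 (adjusted p = 0.203), Snai2 -0.31 ± 0.19 (adjusted p = 0.328), Zeb1 -0.21 ± 0.14 (adjusted p = 0.354), Fn1 -0.27 ± 0.64 (adjusted p = 0.835) and Zeb2 -0.23 ± 0.52 (adjusted p = 0.83). Cdh2, at 0.11 ± 0.11 (adjusted p = 0.572), was the only value above 0. Twist1 and Twist2 were below the filter. The median was -0.27 over the 7 genes and 0.01 over all genes tested. Under gene totals the median of all genes moved to 0.13 and the share of called genes that were higher to 67.5%, against 37.5%, and 0 of the 9 genes were called.

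Rb1/Trp53/Crebbp tumour 8 decided some of these values. It had the highest Zeb2, Fn1 and Cdh2 CPM of the Pomc-high set and the highest Vim CPM of its group. Without it Vim was -1.16 (adjusted p = 0.0482) and Zeb2 -1.42 (adjusted p = 0.014), both called lower in Rb1/Trp53/Crebbp tumours. The same tumour stood apart in its markers of other cells. Its astroglia and pituicyte markers summed to 932 CPM, against at most 297 CPM in the 6 Rb1/Trp53 tumours of the set. Its Schwann cell markers summed to 746 CPM, against at most 150 CPM in them. Among the 4 Rb1/Trp53/Crebbp tumours its fibroblast sum was 264 CPM, against 59.4 to 108 CPM in tumours 5 to 7. The macrophage sum was 234 CPM, against 30.8 to 109 CPM, and the endothelial sum 88.9 CPM, against 40.0 to 61.6 CPM.

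**Figure D4:**
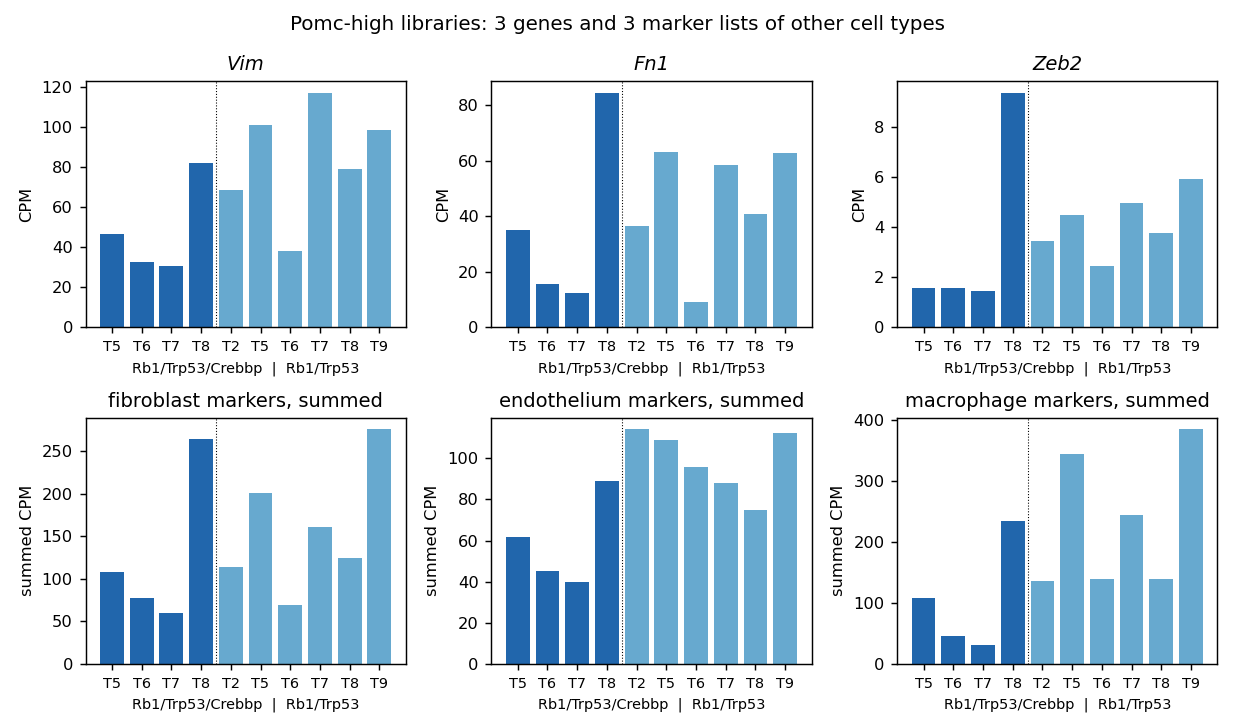
Bars from 0 for each Pomc-high library, Rb1/Trp53/Crebbp tumours left of the dotted line and Rb1/Trp53 tumours right of it: CPM of Vim, Fn1 and Zeb2 above, and summed CPM of fibroblast, endothelial and macrophage markers below. Rb1/Trp53/Crebbp tumours 6 and 7 are low in all 6 panels, and tumour 8 is the highest of its group in all 6, with Zeb2 at 9.38 CPM.

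Some of these sums were low in the libraries that were low in Vim, Fn1 and Zeb2. Rb1/Trp53/Crebbp tumours 6 and 7, low in Vim and Zeb2, had the lowest macrophage sums of the set, 45.2 and 30.8 CPM, and the lowest endothelial sums, 45.4 and 40.0 CPM. Rb1/Trp53 tumour 6 had the lowest Vim, Fn1 and Zeb2 of its group and also its lowest fibroblast sum, 69.0 CPM, but its endothelial sum of 95.6 CPM lay inside the range of its group and its macrophage sum of 139.6 CPM was above the 136.7 CPM of Rb1/Trp53 tumour 2. Between the genotypes, 2 of 12 endothelial markers were lower (40.0 to 88.9 CPM against 74.6 to 114 CPM), and 8 without Rb1/Trp53/Crebbp tumour 8. Macrophage markers were lower for 1 of 12 (30.8 to 234 CPM against 137 to 385 CPM), and 4 without that tumour. Fibroblast markers were called for 0 of 10 (59.4 to 264 CPM against 69.0 to 275 CPM), and 2 were lower without it. Their part in the values of the 9 genes was not tested.

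Each of the wider gene lists had 0 to 4 genes called for the genotype in the Pomc-high set, beside 8.42% of all genes tested. Matrix and mesenchymal genes were lower for 3 of 25 and higher for 0, with a median of -0.45, and without Rb1/Trp53/Crebbp tumour 8 they were lower for 5, with a median of -0.82. Lox, the lysyl oxidase gene, averaged 21.0 CPM in Rb1/Trp53/Crebbp against 57.0 CPM in Rb1/Trp53 tumours (-1.41 ± 0.23, adjusted p = 0.00411) and the matrix protease gene Mmp14 29.9 against 48.0 CPM. Fibronectin receptor genes were lower for 3 of 12, with Tns1 at 26.8 against 57.4 CPM and Sdc4 at 71.2 against 132 CPM. Of 19 other EMT-associated factors 2 were lower and 1 higher, Wwtr1 at 11.1 against 25.1 CPM (-1.15 ± 0.18, adjusted p = 0.00296), Id2 at 25.2 against 46.3 CPM and Six2 at 88.5 against 67.4 CPM. Epithelial junction and keratin genes were lower for 4 of 30, among them the claudin gene Cldn6 with a log2 fold change of -1.04 and Marveld3 at 7.71 against 13.4 CPM, with 2 lower and 1 higher without Rb1/Trp53/Crebbp tumour 8. Of 7 regulators of epithelial identity 3 were lower, Elf3, Esrp1 and Klf4, and the count was 1 without Rb1/Trp53/Crebbp tumour 6 or 8 and 0 without tumour 7. Smad3 was the 1 TGF-beta gene of 15 that was lower, at 31.8 against 45.8 CPM, and 2 were lower without Rb1/Trp53/Crebbp tumour 8. Ctbp2 and Suv39h1 were the 2 of 17 corepressor genes that were higher, at 33.2 against 25.2 and 31.8 against 23.4 CPM, and the count was 1 without Rb1/Trp53 tumour 7 or Rb1/Trp53/Crebbp tumour 5. Nefl, a neurofilament gene, was higher by 4.18 ± 0.84 on the log2 scale, at 12.9 against 0.734 CPM, and no catenin or stability gene was called.

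Over all 17 libraries, the contrast that the labels give, 0 of the 9 genes passed for the genotype, against 3.86% of the 14338 genes tested. Of the 8 that passed the filter on low counts 0 had an unadjusted p under 0.05, and DESeq2 and limma-voom called 0 as well. Vim averaged 61.9 ± 25.2 CPM in Rb1/Trp53/Crebbp and 89.1 ± 29.3 CPM in Rb1/Trp53 tumours (SD, n = 8 and 9), a log2 fold change of -0.53 ± 0.26 (adjusted p = 0.258). Cdh2 averaged 84.6 ± 16.8 against 73.9 ± 27.5 CPM. With the set as a term, 17.6% of the 15432 genes tested were called, and still 0 of the 9: Vim was -0.63 ± 0.24 (adjusted p = 0.0806) and Cdh2 0.40 ± 0.15 (adjusted p = 0.0738). Under gene totals the median of all genes moved to 0.17 and the share of called genes that were higher to 90.7%, against 46.9%.

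Whether the genotype difference itself differed between the sets was tested as an interaction, Calca-high minus Pomc-high. Cdh2 passed, at 0.74 ± 0.25 (edgeR quasi-likelihood test, adjusted p = 0.0397), so the genotype difference of Cdh2 was larger in the Calca-high set than in the Pomc-high set. Of the 8 EMT genes tested it was the 1 called, while 22.9% of all 15432 genes were. The call was lost in 12 of 17 fits that each left out 1 library, where the value ran from 0.49 to 1.08. Zeb1 at 0.50 ± 0.20 (adjusted p = 0.0791), Snai2 at 0.62 ± 0.28 (adjusted p = 0.117), Snai1 at 1.51 ± 0.69 (adjusted p = 0.124) and Vim, Fn1, Zeb2 and Twist1 did not pass. In the same test Id4 and Id3 passed at -2.72 ± 0.37 and -1.92 ± 0.35, Grhl1 at 1.29 ± 0.21 and Skil at 1.03 ± 0.19. Whole-gene Crebbp passed as well, at 1.08 ± 0.32 (adjusted p = 0.024).

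Genes whose pattern over the 17 libraries was most like that of a member were looked for by Pearson correlation of log2 CPM after the mean of each genotype and set was subtracted, among 11204 genes that averaged 5 CPM or more. Vim was nearest to Fn1 (r = 0.93), Trf, the transferrin gene (r = 0.92), and Col6a3, a collagen VI gene (r = 0.91). Fn1 was nearest to Vim (r = 0.93), Col5a3 (r = 0.90) and the fibronectin receptor gene Itga5 (r = 0.89). Cdh2 was nearest to Spock2 (r = 0.94), Tmcc2 (r = 0.93) and Ptprz1 (r = 0.90), and Zeb1 to Phc3 (r = 0.94), Srgap2 (r = 0.92) and Smg1 (r = 0.92). The 17 points share libraries and depth, and the correlations are descriptions. Vim and Fn1 thus varied together over the 17 libraries pooled after the group means were subtracted, while the nearest genes of Cdh2 and Zeb1 were others. Single groups were not examined apart. Among Calca-high Rb1/Trp53/Crebbp tumours Vim was highest in tumour 2 (103 CPM) and Fn1 in tumour 3 (222 CPM).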

How the data were processed

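Polyadenylated RNA was selected from total RNA with oligo-dT beads and sequenced from libraries of a NEBNext Ultra kit, per the labels' protocols. For each tumour the authors deposited a table of raw read counts for 23284 gene symbols. Per the submitters' processing notes, bcl2fastq 1.8.2, TopHat2 2.0.12 and HTSeq 0.6.1 were named, with genome build mm9. Not given in the sources used here are the annotation and the strand setting, and overlapping and antisense genes cannot be told apart. The 5 summary lines that name no gene, which held 21.7% to 35.5% of each table, were left out. Gene totals had a median of 13456360 reads, so genes at 1 CPM or less rest on few reads.

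Genes were kept by filterByExpr, scaled by TMM and tested in edgeR 4.0.16 (R 4.3.3) by a robust quasi-likelihood fit, with Benjamini-Hochberg adjustment over all genes tested and a threshold of 0.05. SEs were derived from each log2 fold change and its F value. CPM use gene totals scaled by TMM over all 17 libraries, while a fit within a set uses the factors of that set. Genotype was tested within each set and over all libraries, the sets were compared with genotype as a term, and the interaction was tested. The 9 genes, the 10 gene lists, the 12 cell type lists and the sets were chosen with earlier results of these data known. Lists share some genes, such as Acta2 and Tagln between matrix and pericyte lists. Afadin and a macrophage receptor were matched by their older symbols. Text names all 9 genes, up to 3 called genes of smallest adjusted p per list and comparison, and Cdh1, Epcam and markers. Values of 2 genes that this rule names are not reported here.

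Tested on simulated counts with 200 genes changed, the fit found 61% of the 2-fold and 86% of the 4-fold changes in the Calca-high set (14797 genes), 75% and 90% in the Pomc-high set (14010 genes), 74% and 88% between the sets (15432 genes), 66% and 84% over all libraries (14338 genes) and 48% and 78% for the interaction (15432 genes). In the same order, 13, 11, 10, 5 and 3 genes that had been left unchanged were called. In the data far more genes were called than the 200 changed here, 36.2% of those tested in the Calca-high set and 60.1% between the sets. Scaling and adjustment depend on how many genes change, so the simulated shares and false calls need not hold for these comparisons. Alternatives were other scaling (RLE size factors, gene totals), no filter, DESeq2 1.42.0, limma-voom 3.58.1, the tumour number as a block, a fit of 4 groups, the set alone or as a term, and each library left out. Promoter windows are RefSeq's, build GRCm38.p6, matched by symbol.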

Additional observations from a re-analysis of the deposited data

Results flagged for a closer look

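Within Calca-high Rb1/Trp53/Crebbp tumours, tumour 1 had Cdh2 at 62.6 CPM, below the other 3 tumours of its group, which lay close together at 75.1 to 76.8 CPM. It was still above every Calca-high Rb1/Trp53 tumour. Within Pomc-high Rb1/Trp53/Crebbp tumours, tumour 8 had Zeb2 at 9.38 CPM, far above the other 3. Both were found by comparing the gap to the nearest tumour with the range of the group, over 27 groups of genes and tumours, and chance gives about 1 in 20 such groups. The genotype difference of Cdh2 differed between the sets, with an interaction of 0.74 on the log2 scale. That call was lost in 12 of 17 fits that each left out 1 library.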

How the results depend on the processing

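Over the 5 comparisons, 827 log2 fold changes of the 9 genes were recomputed under other settings: 766 kept their direction and side of the threshold, 27 lost their call, 7 gained one and 27 changed sign. The cause of these changes was not tested. Sign changes in the Calca-high set were Twist1 under gene totals (0.068) and, with 1 library left out, Fn1 (-0.21 to 1.29), Snai1 (-0.011 to 0.72) and Twist1 (-0.68 to 0.17). In the Pomc-high set they were Fn1 (-1.08 to 0.006) and Zeb2 (-1.42 to 0.021) with 1 library left out. Outside the 9 genes, Cdh1 there also changed sign (-1.26 to 0.045). Between the sets the sign changes were Zeb2 under gene totals (0.051), limma-voom (0.22), the replicate block (1.23) and within Rb1/Trp53 (0.19), with -0.15 to 0.48 as libraries were left out, and Snai1 within Rb1/Trp53 (-0.40). The replicate block takes the set difference from the tumours numbered 2 alone. Over all libraries they were Fn1 with the set as a term (-0.052), Zeb1 (0.028) and Twist1 (0.10) under gene totals, and Twist1 with 1 library left out (-0.57 to 0.051). For the interaction they were Zeb2 (-0.77 to 0.71) and Twist1 (-0.17 to 0.88).

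Of the 9 genes, 0 to 2 were called in the Calca-high set, in the Pomc-high set and for the interaction as single libraries were left out. Called were 2 under gene totals in the Calca-high set and 2 with limma-voom for the interaction. Between the sets 1 was called within Rb1/Trp53/Crebbp and 3 within Rb1/Trp53. Genes called in the Pomc-high set numbered 1179, against 1917 with DESeq2 and 752 to 1214 with 1 library left out, the lowest without Rb1/Trp53/Crebbp tumour 7. Over all libraries 554 genes were called, against 2204 under gene totals, 1397 with DESeq2, 2723 with the set as a term and 285 to 1010.0 with 1 library left out, the ends being those without Rb1/Trp53/Crebbp tumours 4 and 5. Tumour numbers shared by the genotypes within a set correlated at -0.154 to 0.196 in their deviations from the group means. With so few libraries per group, these values cannot settle whether the numbers pair the samples. With the tumour numbers as a replicate block, 2700 genes were called in the Calca-high set, 354 in the Pomc-high set, 948 between the sets and 1253 for the interaction, and 0 of the 9 genes between the sets and for the interaction. Only tumour number 2 has its 2 tumours in different sets. The block takes the set difference from that pair alone, so it cannot show how the calls between the sets depend on pairing. Depth limits Twist2, Twist1 and Snai1 most.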
